A study of Mus musculus with 278 samples.

Results

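Interferon-response genes are those that cells switch on when interferon is sensed, and a fixed list of 35 of them was followed here through the mouse mammary epithelium, out of 25141 genes kept for analysis. The list was taken by name and no measured value was used to pick its genes, although earlier results of these data were known by then. All 35 passed a filter on low values (1 CPM, the reads of a gene scaled to a common total per cell, in 3 or more cells), as did 15316 genes in all. The question was whether each gene was detected across a lineage or in few cells. The data came from 278 single cells of FVB/NJ mice, captured on the Fluidigm C1, a microfluidic chip that makes cDNA from each cell in a chamber of its own. There were 43 cells sorted as luminal and 112 cells sorted as basal from adult animals, and 123 epithelial cells of pregnant animals, sorted without division by lineage, which the study places at mid-pregnancy. Luminal cells line the ducts and basal cells form the contractile outer layer. No group was given a treatment, and the gate that the study describes for its sorts left out cells with surface antigens of leukocytes, endothelium and red cells.

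Cells with 50000 or more reads in kept genes were used, namely 41 luminal, 85 basal and 96 pregnancy cells, with medians of 638852, 379241 and 215454 reads. A gene counted as detected where a cell, thinned to 50000 reads, held 1 or more of its reads. Each library was 1 cell and the labels name no animal, so each group is 1 sample, no test was run, and no difference between groups has a replicate check. Intervals are exact, at the 95% level, and cover counting error only, since PCR copies of a molecule cannot be told from separate molecules here. Stage and sort cannot be told apart, since the pregnancy cells were not divided by lineage.

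Of 10 basal and 10 luminal marker genes, 85 of 85 adult basal cells detected at least 3 more basal than luminal ones, and 40 of 41 adult luminal cells the reverse. By the same rule 46 pregnancy cells were basal-marked, 27 luminal-marked and 23 between, and 31 lay within 1 marker of a threshold. Some cells also detected 3 or more markers of endothelial (of 6), fibroblast (of 6) or immune cells (of 10), and these are called other-type cells below. They numbered 6 of 41 luminal, 1 of 85 basal and 23 of 96 pregnancy cells. In pregnancy 12 had endothelial, 10 fibroblast and 4 immune markers, and 19 of the 23 also detected 5 or more of the 10 basal or the 10 luminal markers. The summed endothelial level ran from 0 (62 of 96 cells) to 4036 CPM in pregnancy, from 0 (33 of 41) to 956 CPM in luminal and from 0 (84 of 85) to 25.4 CPM in basal cells. For fibroblast markers it reached 24133, 26495 and 3033 CPM in the same order, and for immune markers 21964, 38.8 and 13443 CPM. In adult basal cells 5 of the 6 endothelial markers were at 0.

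Interferons fall into type I (alpha, beta and relatives), type II (gamma) and type III (lambda). Type I and III signals act on genes through the interferon-stimulated response element, which a complex with STAT2 and IRF9 binds, while type II signals act through the gamma-activated site. The induced proteins block viral entry, sense or destroy viral RNA, attack the vacuoles of intracellular microbes and adjust the response itself. Epithelia can keep part of this set on without infection, and in the mammary gland the epithelium is the surface that meets microbes entering the ducts.

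Interferon-induced genes can carry binding sites for these signals in their promoters, and a few promoters are printed here because they belong to genes whose detection went opposite ways. RefSeq windows from 250 bases before to 50 after the gene's start, on GRCm38.p6, the build of the mm10 genome, were at hand for 29 of the 35 genes. The core of the interferon-stimulated response element, read as TTTC, any 2 bases and TTTC again, was sought on both strands, so that GAAA, any 2 bases and GAAA is the same site. It was found in 17 of these 29 genes (58.6%) and in 3.99% of 27025 genes with a window. The gamma-activated site, read as TTC, any 3 bases and GAA, which is the same on both strands, was in 11 of 29 (37.9%) and in 9.55% of all. The 2 letter strings share TTC and GAA, so their matches can overlap. In each set below, capitals mark the matches to the site that the set is shown for. The genes Isg15, Ifit1 and Rsad2 were detected in few cells, Ifitm2 in nearly all, and Gbp7 and Irgm1 in a part of the cells, and each window below holds the response element:
Isg15: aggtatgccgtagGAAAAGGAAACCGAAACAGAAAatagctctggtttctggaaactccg
Ifit1: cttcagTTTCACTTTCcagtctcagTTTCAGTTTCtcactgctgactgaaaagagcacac
Rsad2: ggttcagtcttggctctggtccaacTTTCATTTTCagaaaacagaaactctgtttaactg
Ifitm2: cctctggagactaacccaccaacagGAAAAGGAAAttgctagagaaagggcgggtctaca
Gbp7: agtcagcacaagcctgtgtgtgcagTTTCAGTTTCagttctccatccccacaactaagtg
Irgm1: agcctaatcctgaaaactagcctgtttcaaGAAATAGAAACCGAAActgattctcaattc
They lie at chr4:156200850-156200909 (Isg15, minus strand), chr19:34640779-34640838 (Ifit1, plus), chr12:26456538-26456597 (Rsad2, minus), chr7:140955973-140956032 (Ifitm2, minus), chr3:142530258-142530317 (Gbp7, plus) and chr11:48871421-48871480 (Irgm1, minus), all before the transcript start on which the RefSeq window was set. For Ifitm2 that start lies within the span of the gene given further on. Isg15, with 3 overlapping matches, was detected in at most 9.76% of any group, and Ifitm2, with 1, in at least 95.1%. Across the 17 genes with the element the highest share of cells in any group had a median of 19.8% (2.44 to 100), and across the 12 without 18.3% (4.17 to 78.1). Iigp1, Ifi27, Usp18, Rtp4, Parp14 and Dhx58 had no window and are in neither class. Sites outside the windows were not sought, so these medians do not show whether the element goes with detection.

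The gamma-activated site is shown for Irf1, which was among the most widely detected genes and held this site but no response element, and for Igtp and Irgm2, a pair of neighbouring relatives whose windows differed at 2 of 60 bases and also hold 1 match to the response element each, left in lower case:
Irf1: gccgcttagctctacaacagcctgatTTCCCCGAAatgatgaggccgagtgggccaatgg
Igtp: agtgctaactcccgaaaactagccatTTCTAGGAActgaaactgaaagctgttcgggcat
Irgm2: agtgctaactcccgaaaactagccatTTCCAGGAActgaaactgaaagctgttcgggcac
They are at chr11:53769898-53769957 (Irf1), chr11:58199485-58199544 (Igtp) and chr11:58214876-58214935 (Irgm2), all on the plus strand. A match of letters is a description and shows no binding.

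Taken cell by cell, the genes were detected about as often as genes in general. A luminal cell detected from 0 to 20 of the 35, with a median of 8, a basal cell from 2 to 12, with a median of 6, and a pregnancy cell from 0 to 27, with a median of 9. Without thinning the medians were 11, 7 and 10. Per 1000 genes detected the medians were 2.26, 2.40 and 2.65, where the list makes up 2.29 per 1000 of the genes that passed the filter. The upper end was held by other-type cells. Of 18 pregnancy cells with 14 or more genes, 16 were other-type cells, and so were both luminal cells at that level, while no basal cell reached it. Without other-type cells the medians were 8, 6 and 8 and the maxima 13, 12 and 21. Among the pregnancy cells the 23 other-type cells had a median of 16 (7 to 27), or 4.07 per 1000 genes detected, against 2.44 per 1000 in the remaining 73. The part of these cells in any result was not tested.

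**Figure D1:**
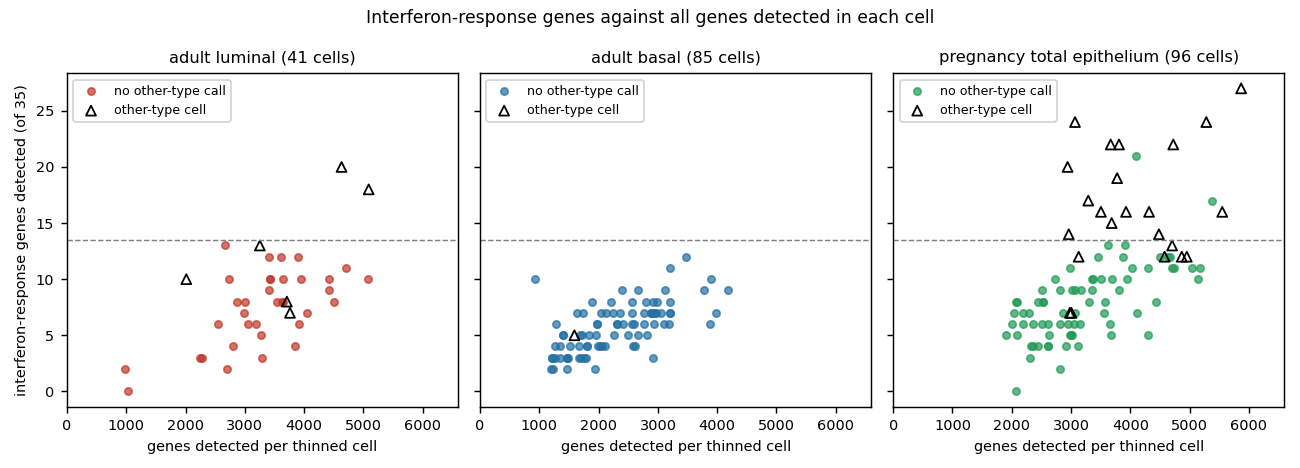
Number of the 35 interferon-response genes detected in each thinned cell (vertical axis) against all genes detected in that cell (horizontal axis), in 41 adult luminal, 85 adult basal and 96 pregnancy cells. Triangles are other-type cells, the dashed line lies just under 14 genes, and 18 of the 20 cells above it are triangles.

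The title numbers of the pregnancy cells also moved with these counts. Earlier work on these data had divided the cells after number 55, at a place where many genes shifted together, although no label names a capture or an animal there. Of the 18 gene-rich cells 14 had numbers up to 55, as did 18 of the 23 other-type cells. The median was 11 genes in the 45 cells numbered up to 55 and 7 in the 51 later ones. Without other-type cells it was 10 (27 cells) and 6 (46 cells). The cells numbered up to 55 detected more genes of all kinds, and per 1000 genes detected the medians were 2.67 and 2.63, or 2.36 and 2.56 without other-type cells.

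Few of the genes were lineage-wide, a word used here for detection in at least 50% of the cells of a group. In adult luminal cells 5 genes were (Ifitm2, Ifitm3, Iigp1, Ifi27 and Ifi35), or 14.3% of the list, where 14.5% of all tested genes reached that share. In basal cells 4 genes were (Ifitm3, Ifitm2, Irf1 and Ifi27), 11.4% of the list beside 8.04% of all genes. Pregnancy cells had 6 (Ifitm2, Ifitm3, Ifi27, Irf1, Gbp7 and Iigp1), 17.1% beside 14.7%. These shares lie near their backgrounds. Ifitm2, Ifitm3 and Ifi27 were lineage-wide in all 3 groups. Of the 6 in pregnancy, Gbp7 and Iigp1 reached 50% among the cells with title numbers up to 55 but not among the later ones. Without other-type cells Ifi35 dropped to 45.7% of luminal and Iigp1 to 42.5% of pregnancy cells, which leaves 4, 4 and 5 genes beside 14.5%, 8.36% and 13.6% of all genes. At a lower bar of 30% of the cells the counts were 11, 6 and 15 genes, beside 27.2%, 16.9% and 28.1%.

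At the other end, 14 genes in luminal, 22 in basal and 7 in pregnancy cells were detected in under 10% of the cells, beside 47.2%, 59.7% and 43.6% of all genes. Without other-type cells the counts were 17, 22 and 16 genes, for which the share over all genes was not computed. Summed levels of genes found in so few cells can rest on single cells. Among genes with 10 or more reads in a group, 10 of 34 in luminal, 11 of 26 in basal and 3 of 34 in pregnancy cells had at least 50% of their reads in 1 cell. The same held for 32.8%, 36% and 18.9% of all genes. Without other-type cells the count was 13 of 30, 10 of 25 and 10 of 33, beside 34.7%, 35.4% and 22.7%.

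Where such a gene had 100 or more reads, its cell can be named. In luminal cells these were Ifit1 (100% of reads in cell 26), Ifi44 (82.5%, cell 27), Ifitm1 (81.4%, cell 43), Gbp3 (80.7%, cell 27) and Xaf1 (53.6%, cell 27), and all 3 are other-type cells. Basal cells had no such common source. There Ifit1 (100%) lay in cell 25, Rsad2 (100%) and Ifih1 (82.0%) in cell 19, Rtp4 (93.7%) and Gbp3 (85.6%) in cell 81, Oasl2 (93.5%) in cell 30, Ifitm1 (85.8%) in cell 80, Ifit2 (83.8%) in cell 47, Xaf1 (63.7%) in cell 3 and Igtp (58.1%) in cell 32. Of these 8 cells only cell 19 detected 3 or more markers of another type.

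**Figure D2:**
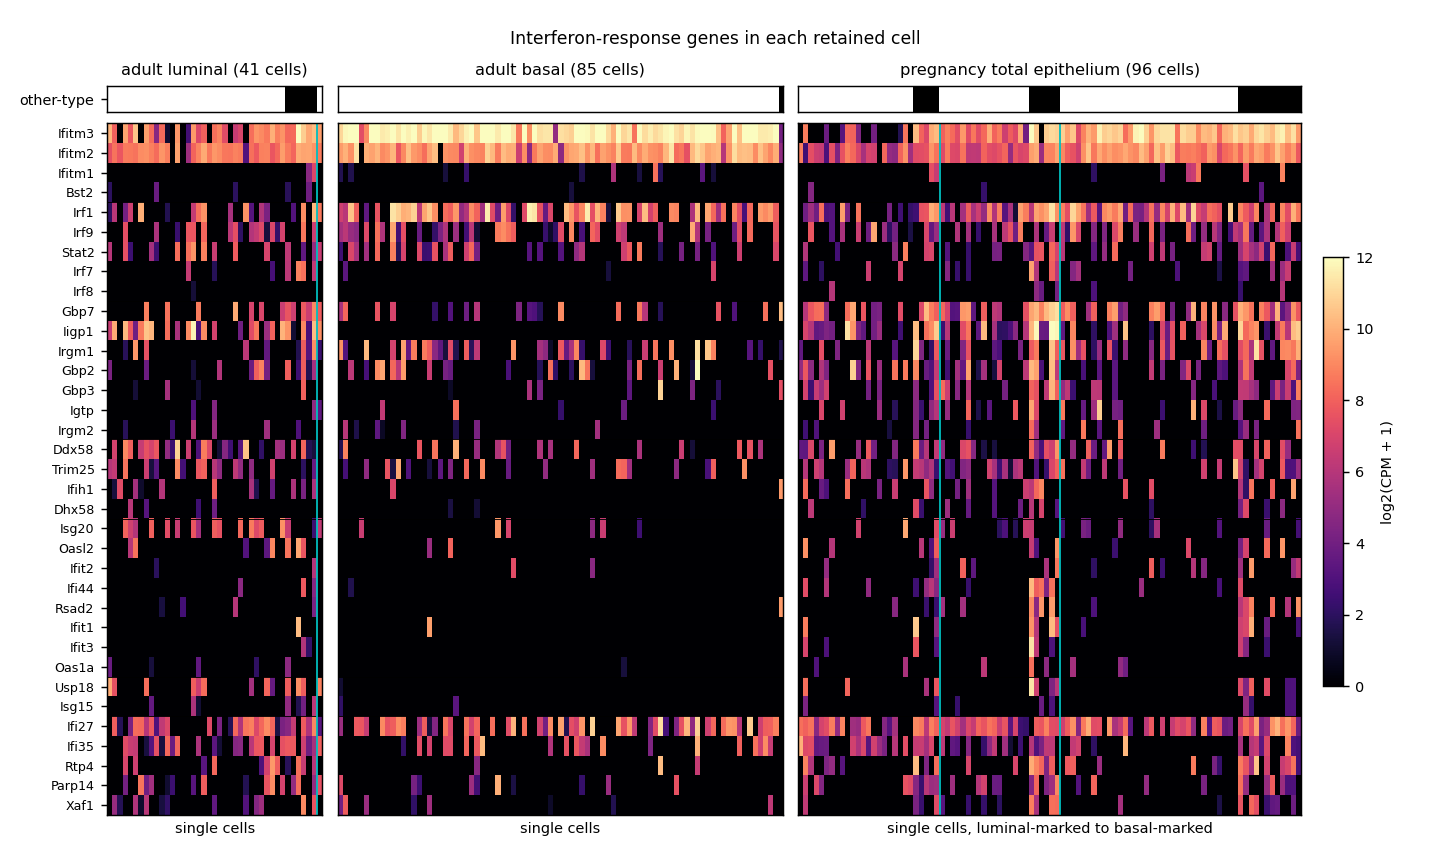
Level of each of the 35 genes, as log2(CPM + 1) by colour, in every retained cell (columns), with the genes grouped by role between black lines and the cells ordered from luminal-marked to basal-marked between blue lines. Black in the strip on top marks other-type cells, and most columns with many coloured genes lie under it, while Ifitm2 and Ifitm3 are coloured across nearly all cells.

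The level of the set as a whole was 2704 CPM in luminal, 5494 CPM in basal and 3087 CPM in pregnancy cells. The transmembrane proteins IFITM2 and IFITM3, which block the entry of viruses, accounted for 37.0%, 72.4% and 35.2% of these reads. Per cell the sum ran from 10.4 through a median of 2269 to 9935 CPM in luminal, from 469 through 5512 to 17783 CPM in basal and from 65.0 through 2968 to 23304 CPM in pregnancy cells. Every retained cell of the 3 groups thus had reads of the set. Without other-type cells the pregnancy sum was 1877 CPM, since these 23 cells stood at 7768 CPM.

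The membrane proteins were the most widely detected. Ifitm3 (chr7:141009590-141010744) was found in 85 of 85 basal cells (100%, interval 95.8 to 100), in 32 of 41 of the luminal sort (78.0%, 62.4 to 89.4) and in 81 of the 96 from pregnancy (84.4%, 75.5 to 91.0). Its level per cell had a median of 3104 CPM in basal (15.5 to 15804), 316 CPM in luminal (0 to 5058) and 720 CPM in pregnancy cells (0 to 6312). Every basal cell held reads of it, although 4 of them lay below the luminal median, whereas a part of the luminal and pregnancy cells held none. Its neighbour Ifitm2 (chr7:140954837-140959686) was found in 95.1% of luminal, 96.5% of basal and 96.9% of pregnancy cells, with medians of 409, 655 and 328 CPM. On a scale that divides by exon length (RPKM), the level of Ifitm3 was at 824 and that of Ifitm2 at 744 in luminal cells, and at 4905 and 1273 in basal cells. The log2 ratio of luminal over basal sums was -2.57 (-2.60 to -2.55) for Ifitm3 and -0.77 (-0.81 to -0.74) for Ifitm2. The 2 genes are close relatives, and how the counting divided reads that fit both was not examined.

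The same division ran through the pregnancy cells. Ifitm3 was found in 46 of 46 basal-marked (100%, 92.3 to 100) and in 13 of 27 luminal-marked cells (48.1%, 28.7 to 68.1), and without other-type cells in 34 of 34 and 8 of 22 (36.4%, 17.2 to 59.3). Its level in the latter was 1301 CPM in basal-marked and 32.5 CPM in luminal-marked cells. In adult luminal cells it was in 17 of 18 cells with 3 or more mature luminal markers above progenitor markers and in 2 of 5 with the reverse. Ifitm1, the third of the cluster, was detected in 2, 4 and 8 cells of the groups, and in 0, 4 and 4 without other-type cells. Bst2, whose product tethers budding viruses to the membrane, was in 1 luminal cell and in none of the thinned basal or pregnancy cells, which allows shares of up to 3.53% and 3.12% by 3 counts of the total, or 4.25% and 3.77% by the exact interval. Before thinning it had 24, 1 and 8 reads.

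Transcription factors followed. Irf1, a factor that interferon induces and that drives many of the other genes, was found in 62 of 85 basal cells (72.9%, 62.2 to 82.0), 75 of 96 pregnancy cells (78.1%, 68.5 to 85.9) and 14 of 41 luminal cells (34.1%, 20.1 to 50.6). Its median level was 196 CPM in basal (0 to 3225), 109 CPM in pregnancy (0 to 2576) and 0 CPM in luminal cells (highest 1190). Most basal cells thus carried it and most luminal cells did not. Among the pregnancy cells without other-type markers it was in 31 of 34 basal-marked (91.2%, 76.3 to 98.1) and 9 of 22 luminal-marked cells (40.9%, 20.7 to 63.6).

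Irf9 and Stat2, whose products act together in the type I response, were spread more evenly. Irf9 was in 36.6% of luminal, 38.8% of basal and 38.5% of pregnancy cells, and Stat2 in 31.7%, 24.7% and 33.3%. Without other-type cells these were 37.1%, 39.3% and 37.0% for Irf9 and 31.4%, 25% and 23.3% for Stat2. With all cells their intervals overlapped between the groups, and reads of Stat2 may include those of the overlapping gene Apof. Irf7, which amplifies type I interferon production, was detected in 5, 2 and 14 cells, and Irf8, a factor of myeloid cells, in 0, 0 and 4. Without other-type cells they were in 1, 2 and 7 and in 0, 0 and 1. In luminal cells 41.6% of the 570 Irf7 reads came from other-type cell 27, and the log2 ratio over basal cells went from 3.17 (2.85 to 3.51) to -0.093 (-0.62 to 0.42) without other-type cells.

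**Figure D3:**
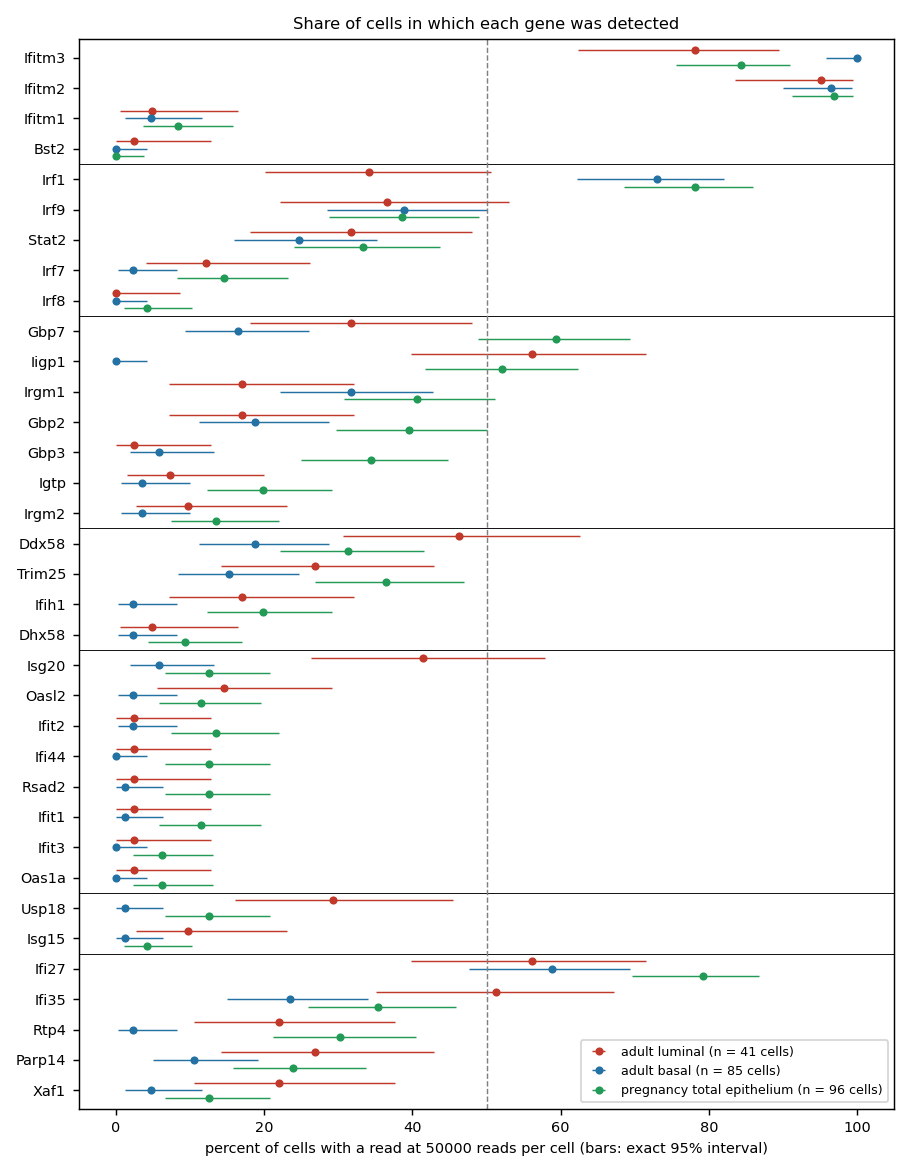
Percent of thinned cells in which each of the 35 genes was detected (horizontal axis), grouped by role, in adult luminal (red, n = 41), adult basal (blue, n = 85) and pregnancy cells (green, n = 96), with exact 95% binomial intervals as bars. The dashed line marks 50%. Ifitm2 lies right of it in all groups and Iigp1 in luminal and pregnancy cells, with no basal cell.

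Interferon-induced GTPases gather on the vacuoles of intracellular microbes. Iigp1 (chr18:60373616-60392634) was in 23 of the 41 luminal cells (56.1%, 39.7 to 71.5) and in 50 of the 96 from pregnancy (52.1%, 41.6 to 62.4). No read of it was counted in 85 basal cells, which allows a share of up to 3.53% by 3 counts of the total, or 4.25% by the exact interval. The luminal cells had a median of 49.4 CPM (0 to 3382) and the pregnancy cells of 11.3 CPM (0 to 8114), and the log2 ratio of luminal over basal sums was at least 12.24. Basal-marked pregnancy cells differed from the adult basal sort. Without other-type markers, 12 of 34 of them (35.3%, 19.7 to 53.5) detected Iigp1, at 97.2 CPM. Beside them stood 11 of 22 luminal-marked ones (50.0%, 28.2 to 71.8), at 46.6 CPM, with the highest levels in cells 70 (2499 CPM) and 73 (653 CPM). Among the 12 it was highest in cells 43 (1406 CPM), 115 (947 CPM), 113 (557 CPM) and 9 (509 CPM). These also detected 7, 4, 4 and 6 of the 10 luminal markers, while cell 80 (173 CPM) detected 2. Whether the difference goes with stage or with luminal markers was not tested. Among adult luminal cells Iigp1 was in 13 of 18 mature-marked and in 0 of 5 progenitor-marked cells. Before thinning, other-type cell 11 among those 5 held it at 1.24 CPM. In these 5 cells 25 of the 35 genes were not detected, for which the share over all genes was not computed, and 1 of the cells detected none of the 35.

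The guanylate-binding proteins were detected in a larger share of pregnancy cells than of adult cells. Gbp7 and Gbp3 reached 50% in the 45 pregnancy cells numbered up to 55 and did not in the 51 later ones. Without other-type cells Gbp7 still reached 50% in the cells numbered up to 55, and Gbp3 did not. Gbp7 was found in 57 of 96 pregnancy cells (59.4%, 48.9 to 69.3), 13 of 41 luminal cells (31.7%, 18.1 to 48.1) and 14 of 85 basal cells (16.5%, 9.31 to 26.1). Gbp3 was in 33 pregnancy cells (34.4%, 25.0 to 44.8), 1 luminal and 5 basal cells. Gbp2 was in 39.6%, 17.1% and 18.8% of pregnancy, luminal and basal cells. The pregnancy interval lay above both adult intervals for Gbp7 and Gbp3, and for Gbp2 (29.7 to 50.1) it overlapped the luminal one (7.15 to 32.1). Without other-type cells the pregnancy shares were 50.7%, 23.3% and 32.9%, and the luminal ones 22.9%, 0% and 8.57%, and the Gbp7 intervals (38.7 to 62.6 and 10.4 to 40.1) then overlapped.

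Irgm1, a regulator of the other members of its family, was in 39 of 96 pregnancy (40.6%), 27 of 85 basal (31.8%) and 7 of 41 luminal cells (17.1%). Igtp was in 19, 3 and 3 and Irgm2 in 13, 3 and 4 cells in the same order. Without other-type cells Irgm1 was in 30.1%, 32.1% and 11.4%, Igtp in 11, 3 and 3 and Irgm2 in 6, 3 and 3 cells. Irgm1 reached 50% in the 45 pregnancy cells numbered up to 55, though not without other-type cells, and did not in the 51 later ones. The median cell detected 1 of the 7 GTPases in luminal, 1 in basal and 2.5 in pregnancy cells. In pregnancy it detected 2 among cells without other-type markers and 5 among other-type cells. In the pregnancy cells without other-type markers Gbp2 was in 50.0% of luminal-marked and 17.6% of basal-marked cells, and Irgm1 in 13.6% and 47.1%. Relatives among these GTPases share sequence, as the promoter windows of Igtp and Irgm2 show, and reads that fit more than 1 of them were not examined.

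Each sensor of viral RNA was found in under 50% of the thinned cells of every group, although without thinning Ddx58 had reads in more than 50% of luminal cells. In thinned cells, 1 or more of the 4 genes of this role were in 30 of 41 luminal, 31 of 85 basal and 61 of 96 pregnancy cells. Ddx58, which encodes RIG-I, was in 19 of 41 luminal (46.3%, 30.7 to 62.6), 16 of 85 basal (18.8%, 11.2 to 28.8) and 30 of 96 pregnancy cells (31.2%, 22.2 to 41.5). Trim25, the ubiquitin ligase that activates RIG-I, was in 26.8%, 15.3% and 36.5%. Ifih1, which encodes MDA5, was in 7, 2 and 19 cells, and Dhx58, their regulator, in 2, 2 and 9. Leaving out other-type cells gave luminal, basal and pregnancy shares of 48.6%, 19.0% and 21.9% for Ddx58 and 31.4%, 15.5% and 34.2% for Trim25, and Ifih1 was then in 5, 1 and 10 cells and Dhx58 in 2, 2 and 2. Of the 438 basal Ifih1 reads 82.0% lay in cell 19, the basal cell with 8 of 10 immune markers.

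The antiviral effectors were found in at most 14.6% of the cells of any group, with 1 exception. Isg20, an exonuclease that degrades RNA, was in 17 of 41 luminal cells (41.5%, 26.3 to 57.9) but in 5 of 85 basal (5.88%, 1.94 to 13.2) and 12 of 96 pregnancy cells (12.5%, 6.63 to 20.8). It was in 13 of 18 mature-marked and 0 of 5 progenitor-marked cells. In none of those 5 were 25 of the 35 genes detected, again without a share over all genes. Its log2 ratio of luminal over basal sums was 4.76 (4.50 to 5.02). In luminal-marked pregnancy cells it was in 3 of 27.

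The IFIT proteins bind viral RNA, viperin (Rsad2) acts on viral replication, and Ifi44 is induced with them. Ifit1, Ifit2, Ifit3, Rsad2 and Ifi44 were each in 1 of 41 luminal cells. In basal cells they were in 1, 2, 0, 1 and 0 of 85 cells, and in pregnancy in 11, 13, 6, 12 and 12 of 96. The pregnancy cells that were not other-type held them in 2, 7, 1, 3 and 4 of 73. All 567 luminal Ifit1 reads came from other-type cell 26, all 506 basal ones from cell 25 and all 375 basal Rsad2 reads from the immune-marked cell 19. The log2 ratio of Rsad2, luminal over basal, was -2.86 (-3.39 to -2.36), and at least 3.74 without other-type cells. The negative value thus rests on cell 19. The positive bound rests largely on luminal cell 30 (64.8 CPM), beside 1.58 and 5.18 CPM in cells 13 and 17. In pregnancy, 8 cells detected 3 or more of these 5 genes, 7 of them other-type cells, and no adult cell did. The 5 were put together after their values were seen.

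The one remaining pregnancy cell, number 8, detected 21 of the 35 genes with 0 endothelial, fibroblast and immune markers. It was luminal-marked, with 8 luminal and 1 basal markers, and held Ifit1 at 428 CPM, Ifi44 at 161 CPM, Ifit3 at 122 CPM and Usp18 at 326 CPM. Pregnancy cell 5, which detected 6 of 6 fibroblast markers and 2 luminal ones, held 80.7% of the 709 Ifit3 reads, 62.9% of the 937 Usp18 reads and 54.3% of the 140 Oas1a reads of its group. These 3 genes were the ones with most of their pregnancy reads in 1 cell. Oas1a and Oasl2, of the family that senses double-stranded RNA, were in 1 and 6 luminal, 0 and 2 basal and 6 and 11 pregnancy cells, and without other-type cells in 0 and 3, 0 and 2 and 5 and 3. Reads of Ifit1 may include those of the overlapping gene Ifit1bl1 and of other Ifit genes.

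ISG15, a ubiquitin-like protein, and USP18, the protease that removes it and damps the receptor, were not detected alike. Isg15 was in 4 of 41 luminal, 1 of 85 basal and 4 of 96 pregnancy cells, and in 1 cell of each group without other-type cells. Usp18 was in 12 luminal cells (29.3%, 16.1 to 45.5), 1 basal cell (1.18%, 0.0298 to 6.38) and 12 pregnancy cells (12.5%, 6.63 to 20.8). A single basal read gave a log2 ratio of luminal over basal sums of 11.63 with an interval from 9.15 to 16.94. Of the pregnancy cells with Usp18, 10 were other-type cells, and 2 of the 73 others had it, beside 9 of 35 luminal cells (25.7%) without other-type markers.

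The remaining genes completed the list. Ifi27, a small mitochondrial protein, was in 76 of 96 pregnancy (79.2%, 69.7 to 86.8), 50 of 85 basal (58.8%, 47.6 to 69.4) and 23 of 41 luminal cells (56.1%, 39.7 to 71.5), and overlaps Ifi27l2a on the genome. Without other-type cells these shares were 75.3%, 59.5% and 54.3%. Ifi35, which forms cytoplasmic complexes, was in 21 luminal (51.2%, 35.1 to 67.1), 20 basal (23.5%, 15.0 to 34.0) and 34 pregnancy cells (35.4%, 25.9 to 45.8). In pregnancy it went with luminal markers, in 13 of 22 luminal-marked (59.1%, 36.4 to 79.3) and 3 of 34 basal-marked cells (8.82%, 1.86 to 23.7) without other-type markers. Rtp4, Parp14 and Xaf1 were in 22.0%, 26.8% and 22.0% of luminal, 2.35%, 10.6% and 4.71% of basal and 30.2%, 24.0% and 12.5% of pregnancy cells. Leaving out other-type cells gave pregnancy shares of 16.4%, 12.3% and 4.11% and luminal ones of 17.1%, 25.7% and 20%. Of the basal Rtp4 reads 93.7% came from cell 81, which also held 85.6% of the basal Gbp3 reads, and Rtp4 overlaps Masp1.

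**Figure D4:**
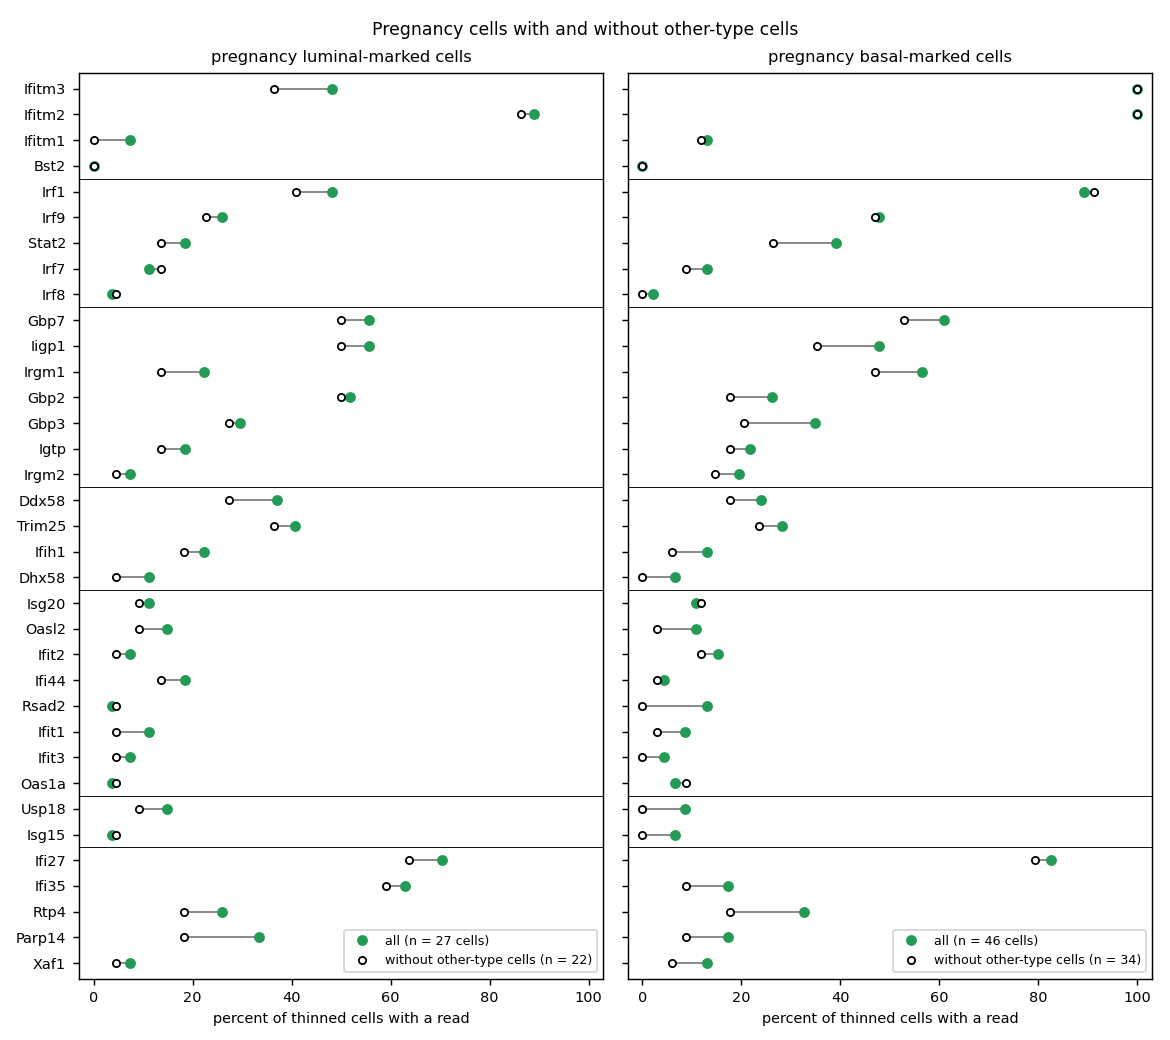
Percent of luminal-marked (left) and basal-marked pregnancy cells (right) in which each gene was detected, for all cells of the class (filled) and without other-type cells (open), joined by a line. Ifitm3 and Irf1 stand far right in basal-marked cells under both, Ifi35 and Gbp2 in luminal-marked cells, and most filled points lie right of the open ones.

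Whether a gene in few cells is merely a low gene was asked by setting shares beside those of all genes at a like level. Between 10 and 50 CPM in pregnancy, the 19 listed genes had a median share of 13.5% and the 4862 genes at that level one of 22.9% (quartiles 15.6 and 31.2). In basal cells 8 genes had 4.12% against 11.8%, and in luminal cells 10 genes had 17.1%, the same as all genes. Without other-type cells the listed and all genes had 22.6% (12 genes) against 21.9% in pregnancy, 4.76% (7 genes) against 11.9% in basal and 12.9% (6 genes) against 17.1% in luminal cells. Between 50 and 200 CPM the listed genes had 36.6% against 43.9% in luminal, 24.7% against 31.8% in basal and 39.1% against 55.2% in pregnancy cells, and without other-type cells 35.7% against 42.9%, 25% against 32.1% and 46.6% against 54.8%. From 200 to 1000 CPM, with 3 to 5 genes a group, they had 78.0% against 80.5%, 72.9% against 65.9% and 78.1% against 86.5%, and without other-type cells 74.3% against 80%, 73.8% against 65.5% and 80.8% against 84.9%. The genes that fall between given levels are not the same under both, since levels were summed anew.

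**Figure D5:**
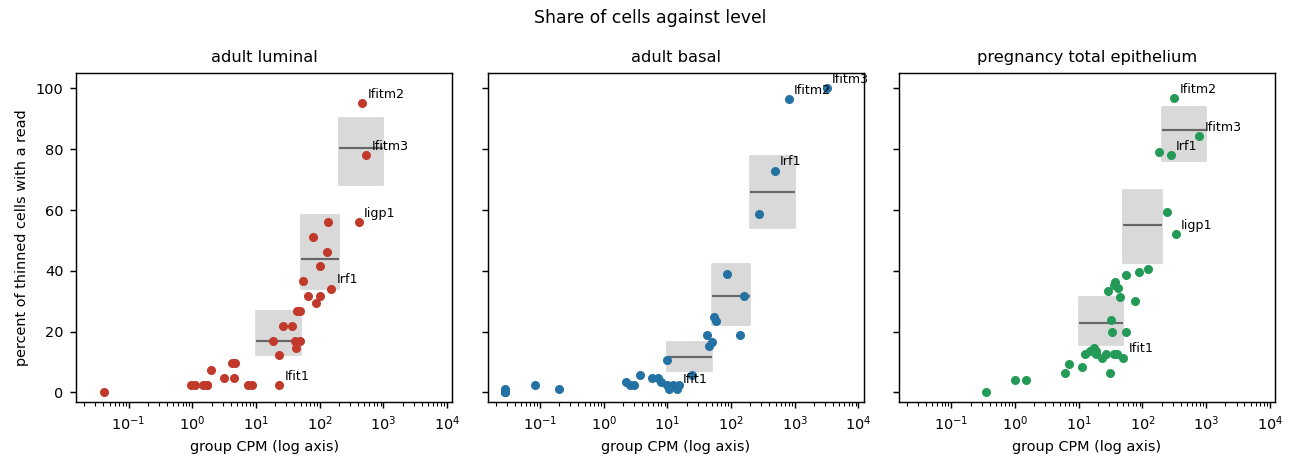
Percent of thinned cells with a read (vertical axis) against group CPM (horizontal log axis) for the listed genes with at least 1 read (points), in the 3 groups. Grey boxes span the quartiles and lines the median of all genes between 10 and 50, 50 and 200, and 200 and 1000 CPM, and in pregnancy most points from 10 to 50 CPM lie under the line.

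Sums were compared as log2 ratios, and a gene was called where they differed 4-fold. Luminal over basal, 13 of the 34 genes with enough reads were higher and 3 lower (38.2% and 8.82%), beside 22.8% and 14.8% of all genes. Without other-type cells 11 of 33 were higher and 8 lower, beside 21.6% and 16.9%. The genes that were higher in both were Iigp1, Usp18, Isg20, Isg15, Dhx58, Oas1a, Ifi44, Bst2 and Parp14. Those lower in both were Ifitm3 and Igtp. Several of these sums rest on single cells. Without other-type cells, luminal reads of Ifi44 lay in cell 31 alone (26.3 CPM). Those of Isg15 were highest in cell 19 (53.0 CPM), of Dhx58 in cell 6 (65.7 CPM) and of Bst2 in cell 12 (12.8 CPM). Oas1a was then detected in no thinned luminal cell. Basal reads of Igtp were highest in cells 32 (354 CPM) and 13 (80.4 CPM). Usp18, Ifi44, Oas1a and Bst2 had 1 basal read each and Dhx58 had 3, so their sizes are loosely set, as the interval of Oas1a from 2.68 to 10.64 shows. Scaling by TMM moved all ratios of this comparison by -0.30. The median ratio over the genes was 0.82 where that over all genes was 0.32, and 0.54 where it was 0.25 without other-type cells.

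Pregnancy against adult, whole groups showed 7 of 35 genes higher and 2 lower than in luminal cells (15.8% and 12.7% of all genes), and 15 higher and 1 lower than in basal cells (20.9% and 8.9%). Without other-type cells these were 8 and 7 over luminal (15.7% and 16.5%) and 12 and 1 over basal cells (17.5% and 12.4%). The 2 comparisons share the pregnancy cells. On the basal side, basal-marked pregnancy cells, some of which also detected several luminal markers, were set over adult basal cells. Here 14 of 34 genes were higher and 0 lower (19.6% and 9.17% of all genes), which became 8 of 29 and 3 without other-type cells (16% and 12.2%). Iigp1 (at least 10.16), Oas1a, Ifi44, Igtp, Gbp7, Irgm2, Ifit2 and Ifih1 were the 8, with Gbp7 at 2.95 (2.84 to 3.06). On the luminal side, luminal-marked pregnancy over adult luminal cells had 3 higher and 2 lower (9.01% and 22.9%), and 8 and 6 of 34 without other-type cells (8.62% and 27.7%). TMM moved the ratios of this comparison by 0.69. Stat2, Usp18, Isg20, Iigp1, Ifitm3 and Irgm2 were the lower ones, with Iigp1 at -3.13 (-3.32 to -2.95). Most luminal-marked pregnancy cells detected at least 3 more progenitor than mature luminal markers, while 18 adult luminal cells were mature-marked and 5 progenitor-marked. Stage and luminal subtype therefore cannot be told apart in this comparison. Luminal-marked over basal-marked pregnancy cells had 2 higher and 5 lower (8.9% and 21.4%), and 11 and 7 without other-type cells (11.2% and 25.3%).

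The rest of the pathway was read from lists outside the 35. Of 13 interferon genes, 10 had no read in any pregnancy cell, 12 none in any luminal and 11 none in any basal cell. Ifnk, a type I interferon of keratinocytes, was the most detected, in 3 luminal, 2 basal and 8 pregnancy cells. Ifnb1, the beta interferon, was in 3 pregnancy cells and Ifne, the epsilon interferon of epithelia, in 1. None of the 3 with Ifnb1 was left without other-type cells.

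The receptors and their kinases were wider than the interferons. Of 15 such genes 4, 2 and 3 were lineage-wide in luminal, basal and pregnancy cells, where 14.5%, 8.04% and 14.7% of all genes were, and 3, 2 and 3 without other-type cells. The kinase Jak1 was in 95.1%, 77.6% and 96.9% and the phosphatase Ptpn2 in 61.0%, 50.6% and 64.6%. The gamma receptor chains Ifngr1 (51.2%, 25.9% and 57.3%) and Ifngr2 (48.8%, 16.5% and 36.5%), the kinase Jak2 (56.1%, 28.2% and 47.9%) and the type I receptor chain Ifnar2 (22.0%, 22.4% and 44.8%) completed the 6 highest. Without other-type cells Ifngr1 was in 48.6%, 25% and 54.8%, Jak2 in 57.1%, 27.4% and 38.4% and Ifnar2 in 20%, 21.4% and 35.6%.

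A further list held 50 interferon-induced genes. In luminal, basal and pregnancy cells 4, 3 and 4 of the 50 were lineage-wide, where 14.5%, 8.04% and 14.7% of all genes were. Without other-type cells 4, 3 and 3 were, where 14.5%, 8.36% and 13.6% of all genes were. The median share was 7.32%, 2.35% and 14.6%, or 2.86%, 1.79% and 5.48% without other-type cells. Over the 35 genes the medians were 17.1%, 3.53% and 19.8%, and 11.4%, 3.57% and 12.3%. The widest were Ly6e (97.6%, 96.5% and 100%), the proteasome activators Psme1 (85.4%, 63.5% and 70.8%) and Psme2 (82.9%, 58.8% and 66.7%), the ubiquitin ligase Dtx3l (70.7%, 8.24% and 41.7%), the lysosomal reductase Ifi30 (26.8%, 27.1% and 50.0%) and Irf2 (36.6%, 41.2% and 46.9%). Of the 4 further Ifitm genes none was lineage-wide in any group, beside the same shares of all genes, and 1 had no read in basal cells.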

How the data were processed

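The authors sequenced Nextera XT libraries of single cells on a NextSeq 500, mapped the reads to mm10 using Subread (1.4.6 per the labels), and counted them per gene with featureCounts and the RefSeq-based annotation that comes with Rsubread. The deposited values are raw counts per Entrez gene and cell. Whether the counting used strand is not given in the sources used here. Symbols, positions and promoters came from RefSeq tables of GRCm38.p6. IDs lacking a symbol (1904, with 1.20% of reads) were removed, as were 15 mitochondrial (9.54%) and 119 ribosomal genes (1.57%). Groups came from the labels.

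Cells were thinned without replacement to 50000 reads. Shares have Clopper-Pearson intervals, sums Poisson intervals and ratios of sums exact conditional ones. A sum of 0 entered at 3 counts over the group as a bound, and both sums at or under 3 gave no ratio. Genes with 30% or more of the thinned cells of a group, or with 100 or more reads and 50% of them in 1 cell, are given in full, and 6 per further list are named. Tools were Python 3.11.15, numpy 2.4.6, scipy 1.17.1 and pandas 2.3.3, and for scaling edgeR 4.0.16 and DESeq2 1.42.0 in R 4.3.3. The ratios and thinning were tested on simulated counts. Cells were checked for duplicates, of which none was found (highest correlation 0.748). The genes, lists and other-type rule were chosen with earlier results of these data known. The alternatives were the depth, the minimum reads, the scaling and cells left out.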

Additional observations from a re-analysis of the deposited data

How the results depend on the processing

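No paired analysis was possible because each library is 1 cell, the shared title numbers name no animal, and no test was run. Each group is 1 sample, so no replicate could be left out. Depth limits rare detection: a count of 0 allows shares of up to 7.32% in luminal, 3.53% in basal and 3.12% in pregnancy cells by 3 counts of the total, or 8.60%, 4.25% and 3.77% by the exact interval. Thinning to 100000 reads, no thinning and another seed moved no group-level result beyond its set margin. For the median number of genes that margin was the standard deviation over cells. Within the margins the luminal median went from 8 to 11 genes without thinning, and Ddx58 then had reads in more than 50% of luminal cells. Dropping the filter on low genes could move none, because all 35 genes passed it. The cause of the changes below was not tested. Leaving out other-type cells was an alternative chosen after seeing the data.

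At 30% of cells, 11 luminal and 15 pregnancy genes were lineage-wide. The median share in pregnancy was 9.38% at 5 or more reads and 12.3% without other-type cells, and 10 pregnancy genes then had 50% of their reads in 1 cell. A marker difference of 5 left 17 luminal-marked cells. The summed level was 2648 CPM in luminal, 5884 CPM in basal and 3808 CPM in pregnancy cells as a mean over cells, and 2750 CPM in luminal cells with the study's minimums. It was 2347, 5531 and 1877 CPM without other-type cells, and 5531 CPM in basal and 3042 CPM in pregnancy cells without immune-marked cells.

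Counts of 4-fold differences moved as follows. Luminal over basal, 5 were lower with TMM, 5 with DESeq2 factors and 8 without other-type cells. Pregnancy over luminal, 11 were higher without top cells, and 1 was lower with TMM, 1 with DESeq2 factors and 7 without other-type cells. Pregnancy over basal, 0 were lower with TMM, DESeq2 factors or mean CPM. Luminal-marked over basal-marked, 4 were higher by mean CPM and 11 without other-type cells. Luminal-marked over adult luminal, 5 were higher with TMM, 6 with DESeq2 factors, 7 without top cells and 8 without other-type cells, and 0 were lower with TMM, 0 with DESeq2 factors, 1 by mean CPM and 6 without other-type cells. Basal-marked over adult basal, 8 were higher without other-type cells, and 1 was lower by mean CPM, 1 without top cells and 3 without other-type cells.

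The sign turned for Irf7, luminal over basal, at -0.093 without other-type cells. For Rsad2 it turned to 2.75 without top cells, 4.09 without immune-marked cells and 3.74 without other-type cells, and luminal-marked over basal-marked to 2.38 without other-type cells.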
